A study of Mus musculus with 8 samples.

Results

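A set of 10 genes of the inflammasome pathway and its inflammatory caspases was followed in mouse pro-B cells, the early committed stage of B cell development. They were the sensors Nlrp3, Nlrc4 and Aim2, the adaptor Pycard, the caspases Casp1, Casp4 and Casp12, the pore protein Gsdmd and the cytokines Il1b and Il18. The set was chosen by the large fall of the Casp4 signal in fetal liver cells relative to bone marrow cells, so the contrast between the empty-vector cells of both tissues is described below without a test. Probes were matched by gene name, which gave 12 probes for the 10 genes among 39429 probes for 31710 genes or transcripts. Of the 10, 9 genes passed the filter on dim probes (well above background on at least 2 of 8 arrays) and Il1b did not.

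Lin28b binds let-7 precursor RNA and keeps it from being processed, and the study added Lin28b to adult cells and let-7b to fetal cells. Agilent arrays of 1 colour measured 2 samples in each of 4 groups. All cells, controls included, came from BALB/c Rag1 null mice, which cannot rearrange antigen receptor genes, so that their B lineage stops at the pro-B cell. Bone marrow (BM) pro-B cells of adult mice received Lin28b in the pMIG retrovirus or empty pMIG, and fetal liver (FL) pro-B cells of gestation day 16 received Let-7b in an MSCV retrovirus or the empty MSCV vector. The BM cells of a sort came from 2 mice and the FL cells from pooled embryos, 8 on average. Both were grown on OP9 stromal cells, a mouse line, with IL-7 in 24-well plates, with 12 wells for each virus. Sorting of GFP+ cells followed 4 days after transduction, and amplification started from 100 ng of total RNA. The empty vectors of the tissues differed, so a comparison across tissues also compared vectors, developmental ages and slides.

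Inflammasomes are protein platforms that form when a sensor meets a danger signal: NLRP3 responds to membrane damage and ion loss, AIM2 to DNA in the cytosol, and NLRC4 to bacterial flagellin and secretion proteins through its NAIP partners. They recruit caspase-1, often through the adaptor ASC (Pycard), and caspase-1 matures interleukin 1 beta and interleukin 18 and cuts gasdermin D, whose fragment forms pores. Mouse caspase-11, the product of Casp4, binds bacterial lipopolysaccharide directly and also cuts gasdermin D. The pathway is best known from macrophages and neutrophils.

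Casp1, Casp4 and Casp12 are neighbours, with Casp4 in the middle of the annotated order on chromosome 9. The first 2 behaved alike here, while Casp12 stayed too close to background for its behaviour to be compared. The promoters of these neighbours are shown as the 250 bases before the annotated start (RefSeq, build GRCm38.p6, all on the + strand, 5′ to 3′). The Casp1 stretch is chr9:5298267-5298516, the Casp4 stretch (the first of its 2 listed starts) chr9:5308599-5308848 and the Casp12 stretch chr9:5345226-5345475. Capitals mark matches to 4 short motifs searched on both strands: a core of the interferon-stimulated response element (GAAA, any 2 bases, GAAA), a gamma-activated site (TTCNNNGAA), a kappa-B form (GGG, any 2 bases, TTTCC) and a PU.1 form (GAGGAAGT).
Casp1: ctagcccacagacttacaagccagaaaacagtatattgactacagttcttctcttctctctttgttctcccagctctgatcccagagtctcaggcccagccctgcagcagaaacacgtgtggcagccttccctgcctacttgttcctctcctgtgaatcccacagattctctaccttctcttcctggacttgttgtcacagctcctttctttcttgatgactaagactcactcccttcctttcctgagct
Casp4: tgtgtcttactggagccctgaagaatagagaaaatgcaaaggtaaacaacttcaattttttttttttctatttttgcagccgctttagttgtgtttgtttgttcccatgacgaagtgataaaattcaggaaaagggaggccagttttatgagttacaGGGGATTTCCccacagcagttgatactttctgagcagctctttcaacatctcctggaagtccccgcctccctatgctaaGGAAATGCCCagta
Casp12: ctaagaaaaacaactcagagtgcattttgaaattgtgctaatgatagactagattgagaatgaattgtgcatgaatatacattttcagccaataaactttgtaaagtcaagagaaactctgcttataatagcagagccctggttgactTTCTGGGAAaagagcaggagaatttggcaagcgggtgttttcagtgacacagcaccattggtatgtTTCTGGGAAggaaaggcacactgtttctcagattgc

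The Casp4 stretch held 2 kappa-B matches, GGGGATTTCC at 84 to 93 bases before the start and GGAAATGCCC, read on the other strand, at 5 to 14 bases before it. The Casp12 stretch held 2 gamma-activated sites, both TTCTGGGAA, at 94 to 102 and at 28 to 36 bases before the start. The Casp1 stretch held none of the 4 motifs. Among 32851 promoters of the same length, 1.41% held the kappa-B form, 7.02% the gamma-activated site, 2.98% the interferon element core and 2.44% the PU.1 form. Of the other members, Pycard and Aim2 each held 1 PU.1 form, and Nlrp3, Nlrc4, Il1b and Il18 held none of the motifs. Gsdmd had no promoter in the set used and was not searched. A match describes these letters only. The microRNA put into the FL cells, with its seed (bases 2 to 8) in capitals as the mature 5p form in RefSeq, is
let-7b-5p: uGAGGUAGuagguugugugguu

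Levels are log2 of the processed signal relative to the 75th percentile of the array, so a difference of 1 is a doubling, and levels are compared between samples of a gene and never between genes. The 75th percentile itself lay at a signal of 1925 to 2234 on the BM arrays and 271 to 488 on the FL arrays, and 56.0% to 68.5% of probes were well above background. Pro-B identity held in every group: the 13 measured markers of the list, including Cd79a and Pax5, were well above background on all 8 arrays. The 4 BM arrays lay on 1 slide, and the FL arrays on 2 others, each with 1 empty-vector and 1 let-7b array of the same replicate number. FL replicates spread more than BM replicates: the SD of the median gene was 0.29 with FL empty vector, 0.22 with let-7b and 0.08 in either BM group. Bulk RNA cannot separate fewer expressing cells from less RNA per cell, and p-values measure the spread between these samples only.

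Casp4 and Casp1 were bright in every BM sample and dim in every FL sample, whichever virus the cells carried. Casp4 stood at 2.04 and 2.34 in BM with empty vector, 1.64 and 1.43 in BM with Lin28b, -4.35 and -3.35 in FL with empty vector, and -3.53 and -1.68 in FL with let-7b. In signal units the empty-vector values were 7890 and 10786 in BM against 23.7 and 26.6 in FL. All 8 values were well above background, and the lowest BM value exceeded the highest FL value by over 3 units. The empty-vector means differed by -6.04 (FL minus BM, a 65.7-fold lower signal), and only 5 of 22927 genes had a larger fall. With normexp background correction the difference was -4.41. A second Casp4 probe lay 5 bases away (mm9, chr9:5336658-5336717 and chr9:5336663-5336722, sharing 55 of 60 bases), gave -6.03 for the same contrast and is not an independent measurement.

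Casp1, the effector caspase of the canonical inflammasome, was measured by 1 probe (mm9, chr9:5307206-5307265). Its levels were 2.35 and 2.38 in BM with empty vector, 2.25 and 2.25 in BM with Lin28b, -1.71 and -1.63 in FL with empty vector, and -1.56 and -1.12 in FL with let-7b. The BM and FL values did not overlap, and the empty-vector means differed by -4.04, a 16.4-fold lower signal. Casp12, the next gene along and a member of the same family, stayed close to background in both tissues (mm9, chr9:5372975-5373034). Its levels ran from -5.77 to -4.95 on the BM arrays and from -6.31 to -4.89 on the FL arrays, where 1 of 4 values was well above background. The BM and FL values of Casp12 overlapped, but so close to background that they do not show whether it differed. Its empty-vector difference was -0.38, or -1.51 with quantile scaling and 1.42 with normexp correction.

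**Figure D1:**
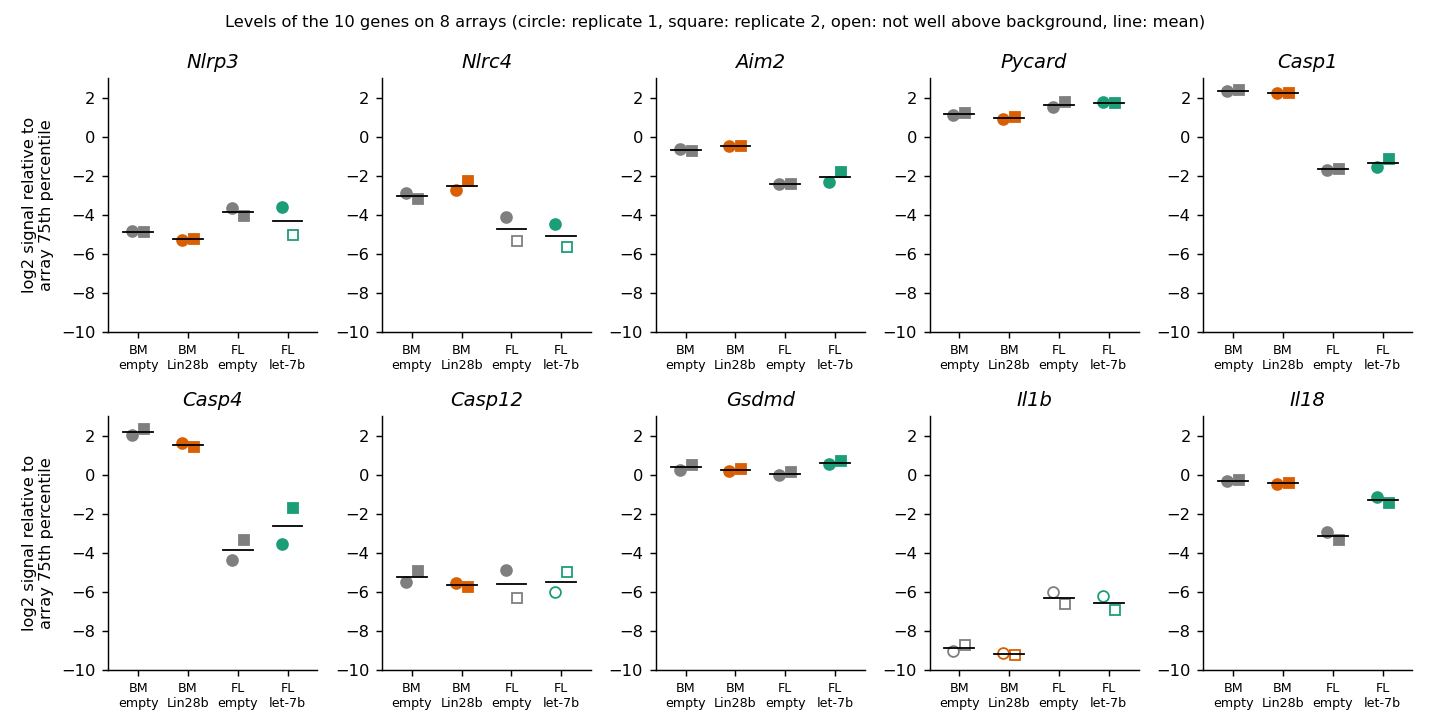
Level of each of the 10 genes (log2 signal relative to the array's 75th percentile, vertical axis) in the 4 groups, with 1 symbol per array, open where the probe was not well above background, and a line at the mean of 2. Casp1 and Casp4 lie above 1.4 on all BM arrays and below -1.1 on all FL arrays, while Pycard and Gsdmd stay within about a unit and Il1b is open throughout.

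Il18, which encodes a cytokine that caspase-1 matures, also differed between the tissues, and the FL groups stood apart from each other. Its levels were -0.34 and -0.24 in BM with empty vector, -0.45 and -0.44 in BM with Lin28b, -2.94 and -3.32 in FL with empty vector, and -1.12 and -1.46 in FL with let-7b. The empty-vector difference was -2.84, and -1.78 with normexp correction. Aim2, the DNA sensor, was at -0.62 and -0.71 in BM with empty vector, -0.49 and -0.47 with Lin28b, -2.40 and -2.44 in FL with empty vector, and -2.33 and -1.81 with let-7b. Every BM value of Il18 and of Aim2 was above every FL value of the same gene.

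The other sensors were dim. Nlrc4 was at -2.87 and -3.18 in BM with empty vector, -2.74 and -2.26 with Lin28b, -4.09 and -5.35 in FL with empty vector, and -4.47 and -5.66 with let-7b, the lower FL value of each group being not well above background. Nlrp3 was at -4.85 and -4.91 in BM with empty vector, -5.30 and -5.23 with Lin28b, -3.67 and -4.05 in FL with empty vector, and -3.59 and -5.06 with let-7b, the last not well above background. Nlrc4 was therefore the lower and Nlrp3 the higher in FL empty-vector cells (-1.70 and 1.01 against BM), but neither kept its size under other processing. The difference of Nlrc4 was -2.49 with quantile scaling and 0.39 with normexp correction, and that of Nlrp3 was 0.07 with quantile scaling.

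The adaptor and the pore protein were well above background on every array of both tissues. Pycard was at 1.12 and 1.21 in BM with empty vector, 0.91 and 1.04 with Lin28b, 1.53 and 1.78 in FL with empty vector, and 1.79 and 1.74 with let-7b, so each FL value was the higher. Gsdmd, printed 10 times on each array and averaged, was at 0.27 and 0.52 in BM with empty vector, 0.21 and 0.29 with Lin28b, -0.03 and 0.16 in FL with empty vector, and 0.54 and 0.73 with let-7b. Its lowest values were those of FL cells with empty vector and its highest those of FL cells with let-7b. Il1b, also printed 10 times, was not well above background on any of the 8 arrays, and neither a level nor a fold is given for it.

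Of the 9 genes compared, 6 were lower and 2 higher in FL empty-vector cells with no overlap between the groups. Over all 22927 genes tested, 28.3% were lower and 54.8% higher by that measure. Over all genes the median lay at 0.52, and at 0.04 after quantile scaling. Set against the median of 0.52 the differences were -6.56 for Casp4, -4.56 for Casp1, -3.36 for Il18, -2.28 for Aim2 and -2.22 for Nlrc4. They were -0.90 for Casp12, -0.85 for Gsdmd, -0.03 for Pycard and 0.49 for Nlrp3, so Pycard was no higher than the median gene. These counts and differences describe the contrast that chose the genes.

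The transduced cells of both tissues were compared on arrays other than the empty-vector ones, and there Casp1 passed the test. The choice named the fall of Casp4 in fetal liver cells in general, so the value of Casp4 is again a description without a test. In FL cells with let-7b against BM cells with Lin28b, Casp1 was 12.1-fold lower (log2 difference -3.59 ± 0.17 SE, limma adjusted p = 0.000583, n = 2 arrays each) and Casp4 17.6-fold lower (-4.14 ± 0.64). The difference of Casp4 was -3.21 without let-7b replicate 1, -5.06 without let-7b replicate 2 and -3.02 with normexp correction, which gave -2.91 for Casp1. Of the 8 other genes tested, 4 were called lower (Casp1, Aim2, Nlrc4 and Il18), 1 was called higher (Pycard) and 3 were not called. Over all genes tested 58% were called, 39.5% higher and 18.5% lower (9060 and 4245 genes, or 5657 and 5767 with quantile scaling). The single rise among the 8 is below the share of all genes and the 4 falls are above it, in a set chosen with the fall of Casp4 in view. This comparison sets both tissue and virus apart at once.

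Aim2 was lower by 3.02-fold (-1.59 ± 0.19, adjusted p = 0.00181), Nlrc4 by a log2 difference of -2.56 ± 0.55 (adjusted p = 0.011) with 1 of 2 let-7b arrays well above background, and Il18 by 1.80-fold (-0.85 ± 0.19, adjusted p = 0.0121). Pycard was higher by 0.79 ± 0.14 (adjusted p = 0.00635), or by 0.29 relative to the median of all genes. That median was 0.50, or 0.06 after quantile scaling and 1.12 with normexp correction. Relative to the 0.50 the differences were -4.63 for Casp4, -4.09 for Casp1, -3.06 for Nlrc4, -2.09 for Aim2 and -1.35 for Il18. Gsdmd (0.38, 95% interval -0.01 to 0.77, adjusted p = 0.081), Nlrp3 (0.93, interval -0.21 to 2.08, adjusted p = 0.131) and Casp12 (0.16, interval -1.24 to 1.56, adjusted p = 0.821) did not pass. A second Nlrp3 probe did, at 0.76 with adjusted p = 0.0463. Casp1 was called lower under each alternative run. With normexp correction Aim2 (-0.77, limma adjusted p = 0.158), Il18 (-0.33, adjusted p = 0.341) and Pycard (0.43, adjusted p = 0.248) lost their calls. Nlrc4 changed sign there (0.67, adjusted p = 0.373), yet Nlrc4 and Pycard both lay below the normexp median of all genes (1.12). Il18 lost its call without either Lin28b array (adjusted p = 0.0656 without replicate 1 and 0.0647 without replicate 2), Nlrc4 without Lin28b replicate 2 (0.0614) and Pycard without Lin28b replicate 1 (0.0537).

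Markers of other cells also differed between the tissues. Stromal markers, which OP9 cells carry, had a summed level of 35.8 to 54.5 times the array's 75th percentile in BM with Lin28b, 21.2 to 25.2 in BM with empty vector, 8.73 to 10.8 in FL with empty vector and 15.0 to 19.8 in FL with let-7b, over 18 genes, of which 11 to 16 were well above background on an array. The sum was thus higher in BM, as Casp1 and Casp4 were, and rested mostly on Fn1, Col1a2 and Sparc. Of the 16 tested, 10 were called lower and 1 higher in FL let-7b than in BM Lin28b cells. With normexp correction 4 were called lower and 3 higher. Dcn went the other way: it was well above background on 2 FL arrays and on no BM array. Within BM the stromal sum was higher with Lin28b than with empty vector, and there Casp1 differed by -0.12 and Casp4 by -0.65. Within FL the sum was higher with let-7b, and there Casp1 differed by 0.33 and Casp4 by 1.25. None of these differences was called. The part of stromal cells in the result was not tested and cannot be told apart from tissue, virus and slide. The summed level of myeloid markers ran the other way, at 138 to 194 in FL and 89.7 to 98.3 in BM. It covered 20 genes, of which 11 to 18 were well above background, but rested mostly on Csf3r and Itgam. Of the 17 tested, 8 were called higher and 0 lower in FL let-7b cells (median 0.51, where all genes had 0.50). With quantile scaling 4 were called higher and 3 lower (median -0.16, where all genes had 0.06). Among the 8 were Csf1r by 3.78, Fcgr1 by 4.14, Cybb by 2.92 and Elane by 2.12, each well above background on all FL arrays. Other defining myeloid genes went the other way: Lyz2 was well above background on all 4 BM arrays and Cd68 on 3, both on no FL array. Ccr2 was well above background on none of the 8. S100a8, S100a9 (0.56), Ngp and Ltf were highest on BM Lin28b replicate 2, and Camp on FL let-7b replicate 1 (-2.62). The 8 hepatocyte markers summed to 2.74 to 4.96 in FL and 0.62 to 0.80 in BM, with 2 or 3 well above background. That sum rested mostly on Apoa2. Of the 3 tested, 2 were called higher and 1 lower in FL let-7b than in BM Lin28b cells. Apoa2 (higher by 2.02) and Serpina1a (by 3.56) were well above background on all FL arrays, and Alb and Ttr on no array. Afp went the other way: it was well above background on all 4 BM arrays and on no FL array, and was called lower.

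**Figure D2:**
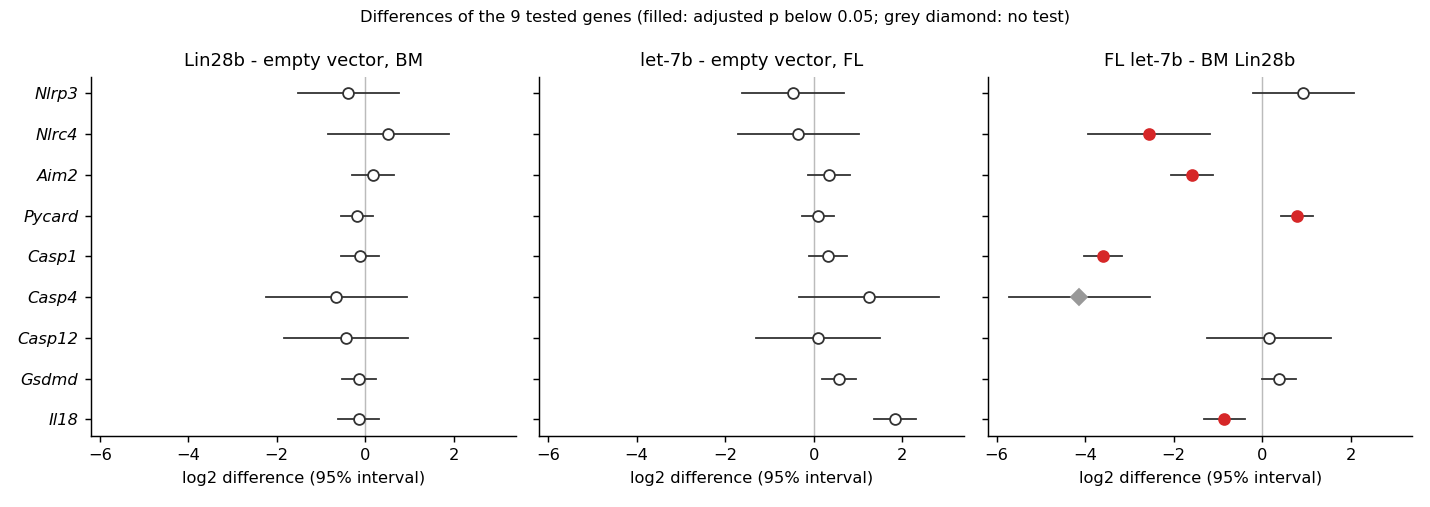
Log2 difference (horizontal axis) with its 95% interval from limma for the 9 genes tested, in the 3 comparisons that were tested, filled where the adjusted p over all genes was below 0.05, with a grey diamond for Casp4 across tissues, which has no test. Filled points occur in the comparison across tissues only, with Casp1 at -3.59 beside the diamond of Casp4 at -4.14, while Il18 with let-7b lies at 1.84, apart from 0 but not called.

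With let-7b in FL cells, Il18 had the largest difference among the 10 genes and lay just outside the threshold. Both let-7b values (-1.12 and -1.46) were above both empty-vector values (-2.94 and -3.32), a difference of 1.84 ± 0.19 SE or 3.57-fold (limma adjusted p = 0.060). The gap was 1.81 on one slide and 1.86 on the other. It had rank 35 by p among 22927 genes, and 128 genes had a larger rise. The result sat on the threshold: quantile scaling (2.12, adjusted p = 0.0265), a filter asking for signal on all arrays of a group (adjusted p = 0.0421), a trended robust fit (adjusted p = 0.0142) and leaving out FL empty-vector replicate 1 (2.03, adjusted p = 0.0354) brought it past. With replicate number, and so slide, as a block the adjusted p was 0.146, with normexp correction 0.537 (1.29), from the values the authors normalized 0.334 (1.38), and with the 4 FL arrays alone 1.0.

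None of the 9 genes tested was called with let-7b, where 0.0305% of all genes were (7 of 22927, with 2240 or 9.77% at an unadjusted p under 0.05). Il18, Gsdmd, Casp1 and Aim2 were higher with no overlap between the groups, as were 11.9% of all genes, and no member was lower in that way, as 18.2% were. Gsdmd differed by 0.57 ± 0.16 (adjusted p = 0.354), by 0.56 and 0.57 on the slides. Casp1 differed by 0.33 ± 0.17 (adjusted p = 0.624) and Aim2 by 0.35 ± 0.19 (adjusted p = 0.639), most of it on the slide of replicate 2 (0.51 and 0.63 there against 0.15 and 0.07).

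Casp4 was higher with let-7b on each slide, by 0.83 and 1.68, yet values differed between the slides by about as much and the groups overlapped (1.25 ± 0.64, 95% interval -0.34 to 2.85, adjusted p = 0.614). Its value was 0.33 without let-7b replicate 2 and 2.18 without let-7b replicate 1. Even the highest let-7b value, -1.68, lay below every BM value. The FL empty-vector arrays are those on which Casp4 was chosen for its low level, so this difference is not independent of that choice. Pycard (0.11), Casp12 (0.10), Nlrc4 (-0.34) and Nlrp3 (-0.46) overlapped between the groups, with adjusted p from 0.816 to 0.979.

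**Figure D3:**
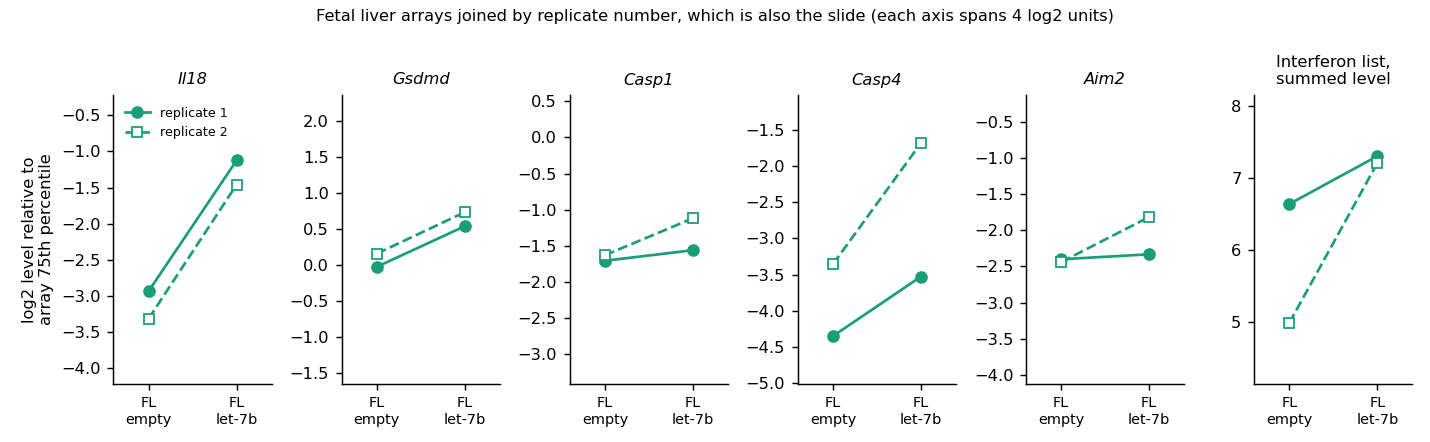
Levels of 5 members and the log2 summed level of the interferon response list (vertical axes, each spanning 4 log2 units) in fetal liver cells with empty vector and with let-7b, joined by replicate number, which is also the slide. With let-7b Il18 is higher by 1.81 and 1.86 on the slides and Gsdmd by 0.56 and 0.57, whereas Casp4, Aim2 and the interferon sum differ more on the slide of replicate 2.

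With Lin28b in BM cells, none of the 9 genes tested passed the threshold. The limma test called 0 of 22927 genes (0%), with 819 (3.57%) at an unadjusted p under 0.05, and the alternatives called 0 to 3. Casp4 was lower on both Lin28b arrays than on either control, by 0.65 ± 0.64 (95% interval -2.24 to 0.94, adjusted p = 1.0), again against control arrays that took part in its choice. Casp12 (-0.44), Nlrp3 (-0.38), Pycard (-0.19), Il18 (-0.15) and Casp1 (-0.12) were also lower with no overlap, and Nlrc4 (0.52) and Aim2 (0.19) higher, while Gsdmd (-0.14) overlapped. That is 6 of 9 lower and 2 of 9 higher, where 32.3% of all genes were lower and 18.4% higher in this way. The intervals of Casp1 (-0.55 to 0.31) and Il18 (-0.62 to 0.32) do not reach the differences seen between the tissues.

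Casp4 is itself known as an interferon-inducible gene, and interferon-stimulated genes lay lower with Lin28b and higher with let-7b. Of 22 genes of the interferon response list, all 22 were lower with Lin28b with no overlap, as were 32.3% of all genes. Their median was -0.87, where all genes had -0.04, and 0 were called. With let-7b 21 were positive (median 1.51, where all genes had -0.06) and 0 were called. Without overlap 18 were higher and 1 lower, where 11.9% of all genes were higher and 18.2% lower. Within slides the let-7b medians were 0.57 and 2.39. The summed level of the list was 39.8 to 43.2 in BM with Lin28b, 66.5 to 87.9 in BM with empty vector, 31.8 and 99.7 in FL with empty vector, and 148 to 158 in FL with let-7b. The list was thus lowest on 1 FL and both Lin28b arrays, and its levels in FL with let-7b exceeded all BM levels. Its part in the differences of the members was not tested.

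The pathway lists are read against all genes, of which 39.5% were called higher and 18.5% lower between transduced cells, with a median of 0.50. Among 25 further inflammasome sensors and regulators tested in FL let-7b against BM Lin28b cells, 12 were called higher and 2 lower (median 0.81). Naip2, which hands bacterial ligands to NLRC4, rose by 1.42 ± 0.14 (adjusted p = 0.00118), and Nlrp12, another gene of the NLR family, by 3.19 ± 0.44 (adjusted p = 0.00255). Of 10 genes for gasdermins and membrane rupture 5 were called higher and 1 lower: Gsdmc3 rose by 2.60 and Gsdma by 1.99, while Gsdme, the gasdermin cut by caspase-3, fell by 2.10. The gasdermin counts lay near the shares of all genes. Quantile scaling changed the counts to 7 higher and 4 lower for the sensors and 2 and 2 for the gasdermins. Between empty-vector cells the sensors had 13 positive and 12 negative differences (median 0.04, where all genes had 0.52), and the gasdermins 7 and 3.

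Receptor and caspase genes held fewer higher calls than the share of all genes (39.5%). Their lower calls lay near that share (18.5%), and the median of all genes was 0.50. Among 13 genes for interleukin 1 and 18 ligands, receptors and antagonists, 2 were called higher and 3 lower. Their median was -0.32, and 1.07 with normexp correction, where all genes had 1.12. The signalling kinase gene Irak2 rose by 2.76 ± 0.27 (adjusted p = 0.00122) and Traf6 by 1.71, while Irak1 fell by 1.03 and the receptor gene Il1r1 was at least 4.45-fold lower, being not well above background in FL let-7b cells. Among 13 apoptotic caspases and their regulators, 2 were called higher and 3 lower. Their median was 0.11, and -0.06 with quantile scaling, where all genes had 0.06. Casp8, the initiator caspase of death receptors, fell by 1.46 ± 0.15 (adjusted p = 0.00126) and Apaf1, the apoptosome scaffold, by 1.47 ± 0.16 (adjusted p = 0.00141), while Casp14, a caspase of skin, rose by 2.52.

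For genes that act upstream of caspase-11 the outcome depended on which cells were compared. Of 14 guanylate-binding and lipopolysaccharide-sensing genes, 6 were called higher and 2 lower between transduced cells (median 0.65), near the shares of all genes. Between empty-vector cells 10 of the 14 were negative (median -0.32). Between transduced cells Gbp2 rose by 3.33 ± 0.13 (limma adjusted p = 0.00058). Ly96, the co-receptor of TLR4 that binds lipopolysaccharide, fell by 2.99 ± 0.16 in the same comparison (adjusted p = 0.000656). Of 14 interferon and NF-kB regulators, 11 were called higher and 1 lower (median 0.88), with Irf9 up by 2.06 and Nfkb2 by 1.15. In the interferon response list 11 of 22 were called higher and 1 lower, among them Zbp1, a nucleic acid sensor, up by 3.82 ± 0.31 (adjusted p = 0.00096). With normexp correction 6 of the 14 regulators were called higher (median 0.73, where all genes had 1.12). Between empty-vector cells the interferon response list was negative in 17 of 22 genes (median -0.62) and the regulators in 3 of 14 (median 0.49).

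**Figure D4:**
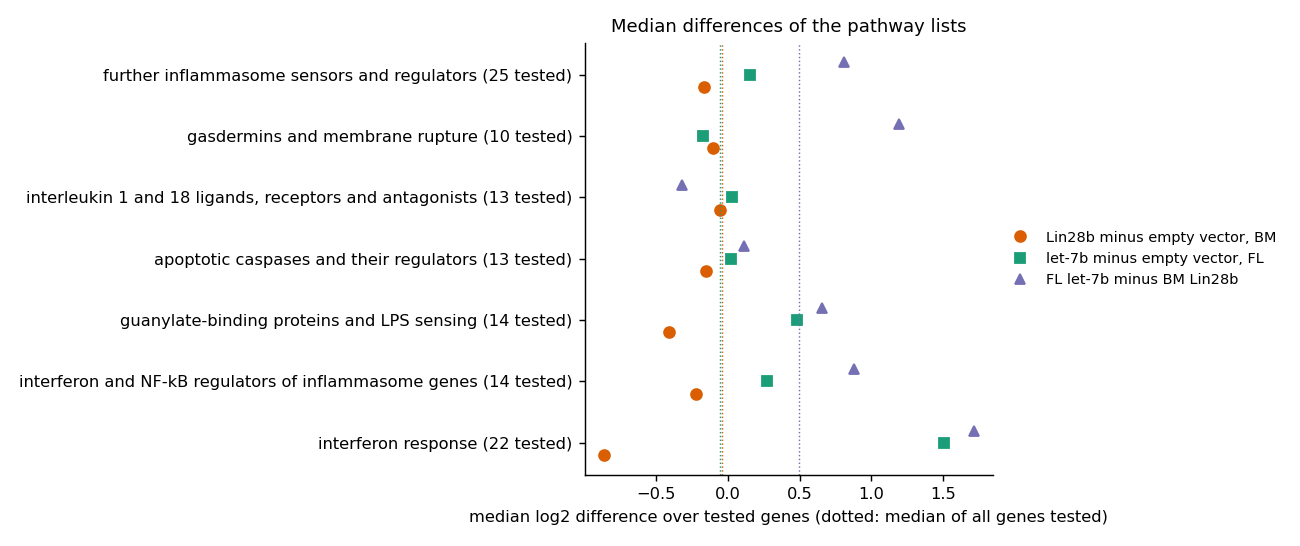
Median log2 difference (horizontal axis) over the tested genes of 7 pathway lists in 3 comparisons, with dotted lines at the median of all genes tested in each. The interferon response list lies at -0.87 with Lin28b, 1.51 with let-7b and 1.72 across tissues. The list of interleukin 1 and 18 genes lies at -0.32 across tissues (1.07 with normexp correction, where all genes had 1.12).

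Within either tissue those lists held 0 called genes. The guanylate-binding list had a median of -0.42 with Lin28b, where 12 of 14 were negative, and 0.48 with let-7b, where 10 of 14 were positive. Gbp5 stood at -0.68 with Lin28b and 0.61 with let-7b, and Gbp2 at -0.68 and 0.44. The interferon and NF-kB regulators had medians of -0.22 and 0.27. The sensors and regulators had medians of -0.17 and 0.16, the gasdermin list -0.11 and -0.17, the interleukin list -0.05 and 0.03, and the apoptotic list -0.16 and 0.02. Normexp correction turned the sign of the gasdermin median with let-7b (0.53, where all genes had 0.34). The let-7b median of the interferon and NF-kB regulators was then 0.08, below that of all genes. That of the guanylate-binding list was then 0.41.

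Casp1 was among the genes whose pattern over the 8 arrays was most like that of Casp4. By root-mean-square distance between values centred on each gene's mean, Casp1 had rank 33 of 22926 genes (distance 0.86), Il18 rank 621, Aim2 rank 717 and Nlrc4 rank 1011. The nearest gene was Hoxb4 (distance 0.43), a homeobox gene of blood progenitors, which was well above background on all 4 BM arrays and 1 of 4 FL arrays. Aqp1, a water channel gene, ranked 4 (0.60) and well above background on all 8 arrays, and the other 3 of the nearest 5 had no symbol in the gene table. The 8 arrays shared their tissue split, which sets most of this likeness. Of the 6 genes nearest to Casp4 in the annotated order, only Casp1 and Casp12 were measured here.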

How the data were processed

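Per the file headers, the deposited spot intensities had been background-corrected by Agilent Feature Extraction 9.5.3.1. How the authors made their deposited table of log2 values is not given in the sources used; its column medians were 7.22 for BM and 6.16 for FL, so it served as an alternative within a tissue only. Its scale follows the scanner signals (slope 0.951 to 1.01 on log2) and its centring is unknown. Probe positions are mm9, per the file headers. Control spots (1377 of 44397 per array) and 31 probes with an outlier spot were left out, and copies of a probe were averaged.

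Levels were log2 of the processed signal minus each array's 75th percentile. Of the probes, 28409 were kept, the brightest per gene was tested, and names were updated through a RefSeq table (GRCm38.p6; 6031 kept the file's name). limma 3.58.1 (R 4.3.3) fitted 1 mean per group over 8 arrays, with Benjamini-Hochberg adjustment over 22927 genes and calls below 0.05. The spread of a gene was shared by all groups, so its SE was the same in each comparison. As FL replicates spread more, the intervals of the median gene are wide for BM and narrow for FL. An exact permutation test of 2 against 2 arrays cannot go below p = 0.333, so calls lean on limma's pooling of spread across genes (prior degrees of freedom 1.69). Precision is limited by the number of arrays. The fit was tested on simulated data. "At least N-fold" is the brighter mean against a floor, which on each dim array is the probe's own value or the lowest value well above background, whichever is higher.

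Alternatives were quantile scaling, normexp correction with an offset of 50, other filters, a trended robust fit, a replicate block, the compared arrays alone, every probe, each array left out in turn and the authors' table. The members and lists were chosen with earlier results of these data known. Named genes were the 10 members, up to 4 per list and comparison with the smallest adjusted p, the 5 genes nearest to Casp4 in pattern and its neighbours in the annotation; not all are named. Markers named as examples were picked with their values known. The labels do not say that replicate numbers pair samples. Deviations of samples with the same number from their group means correlated at -0.06 for BM and 0.52 for FL, where the number is also the slide.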

Additional observations from a re-analysis of the deposited data

How the results depend on the processing

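Casp1 kept its direction and its side of the threshold under each alternative run in the 3 tested comparisons, and Casp4 its direction. The number of genes called with let-7b moved most: 7 as reported, 86 with quantile scaling, 85 with the trended robust fit, 44 with a filter by group, 0 with normexp correction, without a filter, with the 4 arrays alone and in the authors' table, and 0 to 522 with 1 array left out (522 without FL empty-vector replicate 1). With the replicate block 0 genes were called with let-7b, and it changed no call of a member. With Lin28b the calls went from 0 to 2 with quantile scaling, 1 each with the trended robust fit, the 4 arrays alone and every probe, and 3 in the authors' table. Across tissues, 9060 genes were called higher and 4245 lower between transduced cells, against 5657 and 5767 with quantile scaling and 11304 and 2231 with normexp correction. With 1 array left out, calls ranged from 7856 to 14939 there (8531 without Lin28b replicate 2, 7856 without replicate 1) and from 9050 to 14260 between empty-vector cells (9050 without BM empty-vector replicate 1). Differences that changed sign were all small or dim. With let-7b, normexp gave 0.75 for Nlrc4, 0.75 for Nlrp3 and -0.18 for Pycard, the second Nlrp3 probe gave 0.017, and leaving out 1 array gave ranges of -0.62 to 0.81 for Casp12, -0.98 to 0.29 for Nlrc4, -1.20 to 0.27 for Nlrp3 and -0.023 to 0.23 for Pycard. Across transduced tissues, normexp gave 0.67 for Nlrc4, quantile scaling -1.02 for Casp12, and leaving out 1 array -0.37 to 0.69 for Casp12. The cause was not tested. There normexp also brought Casp12 (2.37, limma adjusted p = 0.0194) and Nlrp3 (2.57, adjusted p = 0.00815) past the threshold. The normexp median of all genes was 1.12 in that comparison. The normexp offset of 50 is added to signals whose 75th percentile was 271 to 488 on the FL arrays. Nlrp3 passed without let-7b replicate 2 (1.67, adjusted p = 0.00518) and Gsdmd with the trended robust fit (adjusted p = 0.0489). Signal over background limited Il1b on all arrays and Casp12, Nlrc4 and Nlrp3 on some FL arrays.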
